A study of Homo sapiens with 12 samples.

Results

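SU-DHL-8 is an established human cell line of diffuse large B cell lymphoma, a tumour of mature B lymphocytes. Its cells, labelled wild type and of lymph node origin, were kept as control or given morusinol for 12 h, and RNA was sequenced from 3 replicates of each group. Morusinol is a prenylated flavonoid found in mulberry (Morus) root bark. Its dose, what the control cells received, and whether the replicates were separate cultures are unknown here, so p-values measure only the spread between these libraries. The whole study holds 12 libraries, since a second lymphoma line was treated in the same way, and only the 6 SU-DHL-8 libraries are described. All genes with at least 1 FPKM (fragments per kilobase of gene, scaled to the depth of the library) in 3 or more of the 6 libraries were taken. These were 13752 of the 61466 genes in the deposited table.

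The comparison asks which genes differed between morusinol and control cells of this line after 12 h. By way of background, proteins destined for the cell surface or for secretion enter the endoplasmic reticulum (ER) through a translocon, are folded and glycosylated there, and leave in coated vesicles. When unfolded protein accumulates, the sensors IRE1 (gene ERN1), PERK and ATF6 start the unfolded protein response, which raises ER chaperones through promoter elements such as the ERSE. Several kinases, PERK among them, also phosphorylate the initiation factor eIF2alpha, which lowers general translation and favours the transcription factor ATF4 with its targets, a programme named the integrated stress response. Proliferating B cells in turn express E2F targets for DNA replication and large amounts of cytosolic chaperones, splicing factors and cytoskeletal proteins.

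Values are FPKM, with means ± SD over n = 3 libraries per group. Fold changes are log2 differences of FPKM + 1 (morusinol minus control) with their standard errors (SE), from limma. This scale understates the change of genes at low levels. A gene was called when its limma p, adjusted over all 13752 genes by the Benjamini-Hochberg method, was under 0.05, and "rose" and "fell" are used only for called genes. Depth, estimated from the steps in the low FPKM values, was 14.2 to 15.2 M fragments in the controls and 6.05 to 14.97 M after morusinol. The lowest estimate was that of morusinol replicate 2, and these estimates are approximate. The median absolute deviation of that library from its group mean was 0.071 log2, as in control replicate 3. Across genes, libraries of the same group correlated with Pearson r of 0.963 to 0.980 and libraries of different groups with 0.903 to 0.917. The table held 37 mitochondrially encoded genes, all at 0 in these libraries.

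Of the 13752 genes, 7643 (55.6%) were called. There were 4014 higher (29.2%) and 3629 lower (26.4%), and the median log2 change over all genes was 0.04. Among the 9419 protein-coding genes 31.3% were higher and 34.8% lower, with a median of -0.02. Changes of at least 2-fold were fewer: 770 genes (5.6%) rose and 498 (3.62%) fell by that much, and 100 rose and 44 fell by at least 4-fold. The median absolute change of called genes was 0.55, and 44.2% of the called genes changed by less than 0.5. The balance of directions depended on scaling. Protein-coding genes held 55.6% to 60.3% of all FPKM in the controls and 49.3% to 51.5% after morusinol, with no overlap. When each library was rescaled to the same total (TPM), 3169 genes were higher and 4148 lower, and when rescaled on protein-coding genes, 4537 were higher and 3177 lower.

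**Figure D1:**
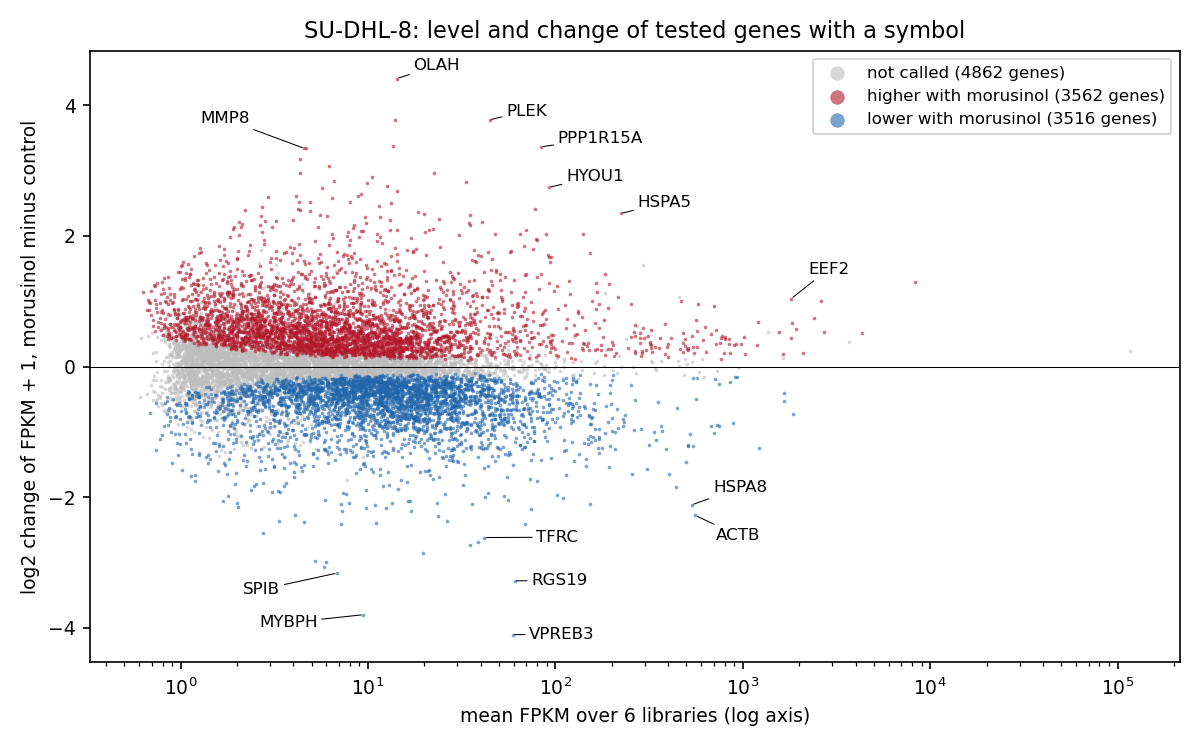
Each point is a tested gene that has a symbol; the x axis is its mean FPKM over the 6 libraries (log axis) and the y axis its log2 change of FPKM + 1, morusinol minus control. Red points were called higher and blue points lower; OLAH has the highest log2 change, 4.41, and VPREB3 the lowest, -4.10.

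The steepest rises included lipid enzymes, surface and signalling proteins and stress response genes. OLAH, a thioesterase acting on medium-chain fatty acyl chains, lies at chr10:15032227-15073852 (GENCODE release 29, build GRCh38, as for all gene positions below). It was at 0.408, 0.302 and 0.406 FPKM in controls, against 27.7, 29.5 and 27.2 FPKM in treated libraries (log2 change 4.41 ± 0.0605, adjusted p = 8.49e-07 in limma). TREML2, a receptor of the TREM family at chr6:41190277-41201194, went from 0.911, 1.16 and 0.992 FPKM to 27.7, 27.1 and 25.3 FPKM (3.78 ± 0.0662). PLEK (pleckstrin, a substrate of protein kinase C, at chr2:68365173-68397453) was already present in controls at 5.77, 5.02 and 4.81 FPKM and reached 84.8, 82.1 and 84.4 FPKM (3.78 ± 0.0625). In all 3 genes the lowest treated library lay many times above the highest control library.

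MMP8, the neutrophil collagenase, at chr11:102711795-102727050, was listed at 0 in every control library and at 9.71, 8.65 and 9.04 FPKM after morusinol, so no fold is given. Only 1 other protein-coding gene was listed at 0 in all controls and at 1 FPKM or more in all treated libraries: CASP5, an inflammatory caspase, at 1.75, 2.18 and 2.25 FPKM. No protein-coding gene showed the opposite pattern. ESRP1, an epithelial splicing regulator, rose from 0.0213 ± 0.0262 to 9.35 ± 0.768 FPKM, GDAP1L1 from 0.535 ± 0.181 to 11.9 ± 0.98 FPKM and POPDC3 from 0.115 ± 0.0533 to 5.73 ± 0.571 FPKM. These genes left near-zero levels in all 3 treated libraries.

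ACSM3, a medium-chain acyl-CoA synthetase of mitochondria, was at 4.39, 4.05 and 4.61 FPKM in controls and at 39.9, 40.8 and 41.8 FPKM after morusinol (2.97 ± 0.0515). Its relative ACSM1 rose from 1.78 ± 0.372 to 15.99 ± 2.51 FPKM (2.61 ± 0.138). The ACSM3 and ACSM1 genes overlap on opposite strands, and because it is not known whether reads were counted by strand, their reads cannot be told apart. The same limit holds for other genes named below, among them DNAJB9 (with PNPLA8 and THAP5), TP53INP1 (with NDUFAF6) and CD52 (with UBXN11). ARFGAP3 overlaps PACSIN2 on the same strand. INHBE, the inhibin beta E chain, a secreted factor, was at 1.89, 1.65 and 1.17 FPKM in controls and at 27, 23.5 and 25.8 FPKM after morusinol (3.37 ± 0.115).

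Stress genes stood among the largest rises at high levels. PPP1R15A (GADD34), which guides a phosphatase to eIF2alpha, went from 12.6, 13.7 and 15.9 FPKM to 152, 161 and 148 FPKM (3.36 ± 0.0826). ATF3, a transcription factor of the integrated stress response, went from 1.65, 1.70 and 1.80 FPKM to 19.6, 19.5 and 18.9 FPKM (2.90 ± 0.0474). Both genes were separated between the groups by far more than the spread of the replicates. The ER cochaperone DNAJB9 went from 8.83, 7.70 and 6.01 FPKM to 60.03, 55.96 and 60.3 FPKM (2.82 ± 0.121), and the ER chaperone HYOU1 from 23.5, 21.8 and 24.8 FPKM to 165, 162 and 159 FPKM (2.74 ± 0.0512). ERN1, the IRE1 sensor itself, was at 0.758 ± 0.0556 FPKM in controls and at 10.6 ± 0.58 FPKM after morusinol (2.73 ± 0.0686). The remaining genes among the 25 largest rises included RGS16, an inhibitor of G protein signalling (2.84 ± 0.0908), SYTL1, a synaptotagmin-like vesicle protein (2.77 ± 0.0957), TMCC2 (2.60 ± 0.0787) and TP53INP1, a p53-induced autophagy gene (2.52 ± 0.0865).

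The steepest falls included several genes of lymphocytes and of the cell surface. VPREB3, a B cell protein of the surrogate light chain family, at chr22:23752743-23754468, was at 120, 105 and 111 FPKM in controls and at 7.39, 2.48 and 8.72 FPKM after morusinol (-4.10 ± 0.375). Its treated value in replicate 2, the library of lowest estimated depth, was about 3 times below the other treated values. SPIB, of the ETS family and typical of B cells, at chr19:50418938-50431313, went from 12.0, 13.5 and 13.7 FPKM to 0.598, 0.559 and 0.562 FPKM (-3.16 ± 0.0713). Other genes of lymphocytes or haematopoietic cells fell with it. The B cell lectin CLEC17A fell from 11.2 ± 1.05 to 0.458 ± 0.145 FPKM, and SIT1, a lymphocyte signalling adaptor, from 61.3 ± 1.13 to 8.52 ± 1.83 FPKM. CD52, a surface glycoprotein, fell from 16.7 ± 1.34 to 2.93 ± 0.243 FPKM, and LSP1, an actin-binding protein of leukocytes, from 7.39 ± 0.272 to 0.731 ± 0.0861 FPKM. FUT7, the fucosyltransferase that builds selectin ligands, was at 5.38 ± 0.291 FPKM in controls and at 0, 0.199 and 0.0804 FPKM after morusinol.

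MYBPH, a myosin-binding protein at chr1:203167811-203175813, went from 17.7, 18.5 and 19.1 FPKM to 0.291, 0.409 and 0.496 FPKM (-3.80 ± 0.074). RGS19, a GTPase activator for G protein alpha subunits, at chr20:64073181-64079988, went from 116, 105 and 111 FPKM to 10.9, 9.61 and 10.97 FPKM (-3.28 ± 0.0639). ATP2A3 (SERCA3), which pumps calcium into the ER, went from 67.4, 64.1 and 71.2 FPKM to 9.97, 9.82 and 9.33 FPKM (-2.68 ± 0.0503). The groups did not overlap in any of these genes, which the rule for naming the largest falls required. TFRC, the transferrin receptor for iron uptake, at chr3:196027183-196082189, went from 73.4, 75.3 and 68.6 FPKM to 10.8, 10.3 and 11.9 FPKM (-2.62 ± 0.0623). SCD, the stearoyl-CoA desaturase, fell from 39.8 ± 1.38 to 7.31 ± 0.0338 FPKM (-2.29 ± 0.0399). GPER1, a G protein-coupled estrogen receptor, fell from 19.2 ± 0.79 to 2.83 ± 0.26 FPKM; the gene overlaps C7orf50 on the other strand.

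**Figure D2:**
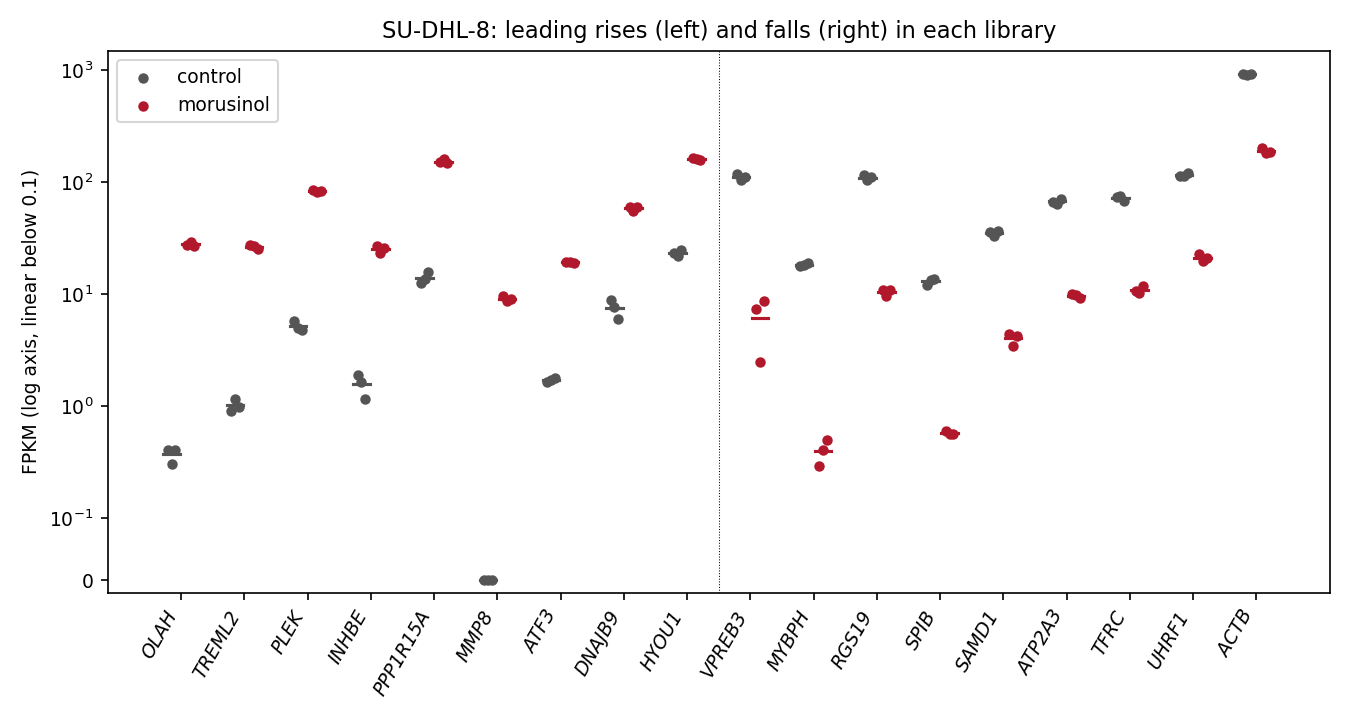
FPKM of 9 leading rises (left) and 9 leading falls (right) in each of the 6 libraries, on an axis that is logarithmic above 0.1 and linear below; grey points are control libraries, red points morusinol libraries, and short lines group means. The groups do not overlap for any of the 18 genes, which the rule for leading genes required. MMP8 is at 0 in all 3 controls, and VPREB3 has the widest treated values, 2.48 to 8.72 FPKM.

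A total of 93 gene families, each defined by name patterns over protein-coding genes, were then read against the protein-coding background of 31.3% higher and 34.8% lower. That background was not matched for level. Among protein-coding genes split into 5 equal groups by mean FPKM, the share lower was 14.9% in the lowest and 54.4% in the highest. Part of a lean to lower in families at high levels may therefore go with level. Of the 93, the ER entry machinery had the highest share of members called higher: of 25 tested genes of signal peptidase, the signal recognition particle (SRP) and the translocon, 21 were higher and 2 lower, with a median log2 change of 0.66. SEC61A1, the channel of the translocon, went from 46.9, 43.4 and 44.4 FPKM to 150, 144 and 141 FPKM (1.67 ± 0.0431). The SRP receptor subunit SRPRA rose from 27.2 to 73.9 FPKM on average (1.41) and the translocon-associated SSR3 from 37.6 to 100.4 FPKM (1.39). The 2 members that fell, SRP9 (-0.78) and SRP14 (-0.58), form the Alu domain of the SRP. Of 45 genes of COPII and COPI coats and cargo receptors, which carry vesicles between the ER and the Golgi, 28 were higher and 6 lower (median 0.46). SEC24D, a COPII cargo adaptor, went from 3.46, 3.36 and 3.08 FPKM to 19.8, 19.8 and 20.3 FPKM (2.29 ± 0.0502). ARFGAP3, which triggers uncoating of COPI vesicles, rose from 1.83 ± 0.052 to 16.6 ± 0.974 FPKM (2.64 ± 0.0581).

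Families of glycosylation, vesicle fusion and membrane protein sorting also had more members called higher than lower. Of 34 genes of N-glycan synthesis and oligosaccharyl transferase, 17 were higher and 3 lower (median 0.19), with ALG2, a mannosyltransferase, at 8.52 and 21.6 FPKM in control and morusinol (1.26) and the transferase subunit RPN1 at 72.4 and 134 FPKM (0.88). MPDU1, needed for use of the dolichol-linked mannose donor, fell from 17.6 to 9.42 FPKM (-0.84). Of 36 syntaxins, VAMP and SNAP genes of vesicle fusion, 17 were higher and 4 lower (median 0.13); the ER-Golgi syntaxin STX5 rose from 8.99 to 31.8 FPKM (1.71), while VAMP8, of late endosomes, fell from 90.2 to 54.6 FPKM (-0.71). Of 46 ESCRT genes, which sort membrane proteins for degradation, 18 were higher and 2 lower (median 0.14), and VPS28 rose from 5.94 to 12.5 FPKM (0.96).

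Isomerase and cochaperone families had called members in both directions. Among 22 peptidyl-prolyl isomerases 4 were higher and 12 lower. FKBP14 (1.12 to 6.56 FPKM, 1.83), PPIB (13.9 to 36.1 FPKM, 1.31) and FKBP11 (12.6 to 26.7 FPKM, 1.03), which work in the ER, rose, whereas PPIA (349 to 178 FPKM, -0.97), FKBP4 (62.3 to 27.1 FPKM, -1.17) and FKBP5 (12.3 to 4.88 FPKM, -1.18), of the cytosol and nucleus, fell. Among 36 DNAJ cochaperones 15 were higher and 10 lower. The ER members DNAJB9 and DNAJC10 (7.51 to 28.5 FPKM, 1.80) rose, as did DNAJB2 (2.06 to 9.07 FPKM, 1.72), and the HSP70 partners DNAJB1 (15.3 to 6.65 FPKM, -1.09) and DNAJA1 (213 to 79.5 FPKM, -1.41) fell. Both lists were formed by gene name, and the other members were not sorted by compartment.

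The chaperonin and prefoldin family leaned lower. Of 17 chaperonin and prefoldin genes, which fold actin, tubulin and mitochondrial proteins, 14 were lower and 1 higher (median -0.60). HSPE1, the mitochondrial cochaperonin, went from 67.1, 72.6 and 70.7 FPKM to 16.6, 16.3 and 20.05 FPKM (-1.94 ± 0.0821), and the chaperonin subunits TCP1 and CCT6A fell from 207 to 98.9 FPKM (-1.06) and from 197 to 86.6 FPKM (-1.18). HSPA8, the constitutive HSP70, went from 876, 910 and 828 FPKM to 203, 199 and 198 FPKM (-2.11 ± 0.0415). HSP90AA1 went from 682, 715 and 657 FPKM to 188, 199 and 184 FPKM (-1.84 ± 0.046), with treated values below every control value. HSPA9, the HSP70 of mitochondria, was not called, at 88.7 ± 2.3 FPKM in controls and 86 ± 1.49 FPKM after morusinol.

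Promoter sequences were examined because chaperone genes were called in both directions. Windows from 250 bases before to 50 bases after each start were read from RefSeq (build GRCh38.p14) and matched by symbol to 7833 of the 9419 protein-coding genes tested, with every listed start of a gene counted. Motifs were searched on both strands. The ERSE, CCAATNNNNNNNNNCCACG, was present in 0.0769% of all windows in the table and in 15 of the 7833 tested genes (0.191%). These shares differ in unit, because a gene was counted when any of its windows matched. Among the 5620 tested genes with 1 window, 0.214% held the ERSE. Of the 7833 genes, 2441 were higher and 2752 lower. Of the 15 holders 14 were higher and none lower, and their median log2 change was 0.92. They were HSPA5, XBP1, CRELD2, HSP90B1, ERO1B, FICD, CANX, SERP1, EIF2A, TRIM5, CALR, ALG12, PDIA6 and TMEM120A among the higher and ZNF17 (0.09) among those not called. Most of the 14 are chaperones, oxidoreductases or other genes of the ER, and EIF2A and TRIM5 are not. TMEM120A was called with an adjusted p of 0.0173 in limma, and not without control replicate 2 (0.0564). The 4 ERSE holders with the largest change are printed first, each 5' to 3' on the strand of its gene and ending before the start. Capitals mark the ERSE, in CRELD2 on the opposite strand. The positions are chr9:125241346-125241454 (minus strand, HSPA5), chr22:28800570-28800666 (minus strand, XBP1), chr22:49918509-49918617 (plus strand, CRELD2) and chr12:103930171-103930279 (plus strand, HSP90B1).
HSPA5: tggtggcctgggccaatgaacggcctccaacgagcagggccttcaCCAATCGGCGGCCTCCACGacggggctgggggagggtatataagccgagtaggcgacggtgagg
XBP1: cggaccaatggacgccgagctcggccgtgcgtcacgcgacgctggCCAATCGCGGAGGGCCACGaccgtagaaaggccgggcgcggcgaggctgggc
CRELD2: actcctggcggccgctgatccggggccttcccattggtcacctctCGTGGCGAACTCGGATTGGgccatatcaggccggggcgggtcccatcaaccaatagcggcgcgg
HSP90B1: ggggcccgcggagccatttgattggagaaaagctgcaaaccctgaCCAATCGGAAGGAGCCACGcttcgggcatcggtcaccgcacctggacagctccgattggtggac
HSPA5 (BiP, the main ER chaperone) was at 71.9, 73.1 and 74.2 FPKM in controls and at 376, 373 and 375 FPKM after morusinol (2.34 ± 0.0286). XBP1, the factor activated when IRE1 splices its mRNA, went from 31.6, 33.5 and 30.3 FPKM to 127, 126 and 124 FPKM (1.95 ± 0.043). CRELD2, an ER protein, rose from 3.37 ± 0.359 to 13.6 ± 0.862 FPKM (1.74 ± 0.079), and HSP90B1, the HSP90 of the ER, from 45.7 ± 0.763 to 141 ± 0.803 FPKM (1.60 ± 0.0299). All 3 treated libraries exceeded all 3 controls in these genes.

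A further group shows motifs of genes that moved in other ways, with the searched motif in capitals: the heat shock element (HSE, GAANNTTCNNGAA) in HSPA8 and, on the opposite strand, in HSP90AA1, an E2F site in E2F2, and the CRE (TGACGTCA) in PPP1R15A. The positions are chr11:123062309-123062386 (minus strand, HSPA8), chr14:102087075-102087177 (minus strand, HSP90AA1), chr1:23531234-23531320 (minus strand, E2F2) and chr19:48872318-48872415 (plus strand, PPP1R15A).
HSPA8: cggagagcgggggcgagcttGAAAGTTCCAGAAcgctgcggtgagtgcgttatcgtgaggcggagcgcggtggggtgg
HSP90AA1: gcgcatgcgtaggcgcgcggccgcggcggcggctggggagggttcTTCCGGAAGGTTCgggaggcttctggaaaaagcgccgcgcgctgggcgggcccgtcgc
E2F2: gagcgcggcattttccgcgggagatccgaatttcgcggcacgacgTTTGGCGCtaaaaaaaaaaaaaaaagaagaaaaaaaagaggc
PPP1R15A: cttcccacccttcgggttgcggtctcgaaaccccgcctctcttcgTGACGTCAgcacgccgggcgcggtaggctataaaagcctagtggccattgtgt
The HSE was in 36 of the 7833 genes (0.460%), in 0.285% of the 5620 with 1 window and in 0.490% of all windows. Of the 36, 9 were higher, 14 lower and 13 not called, with a median log2 change of -0.11. The HSE was in 0.369% of the 2441 higher genes, 0.509% of the 2752 lower and 0.492% of the 2640 not called. Its shares in lower genes and in genes not called were therefore close. The 36 holders included HSPA8, HSP90AA1, DNAJA1, HSP90AB1 and HSPD1, which fell, and OSBP, a sterol-binding protein, which rose (1.28). E2F sites (TTTCCCGC, TTTCGCGC, TTTGCCGC or TTTGGCGC) were in 7.35% of the 7833 genes, 6.30% of the 5620 with 1 window and 3.31% of all windows. Their share was 14.2% of the 309 genes at least 2-fold lower and 4.67% of the 364 genes at least 2-fold higher. The AP-1 site (TGACTCA or its complement) was in 3.86% of tested genes and 7.14% of those at least 2-fold higher, and the CARE (TGATGNAA) in 2.63% and 4.12%. The ETS site (CCGGAAG) was less frequent in both directions: 25.9% of all tested genes, 16.2% of those at least 2-fold higher and 17.2% of those at least 2-fold lower held it. The CRE was in 4.23% of all tested genes and 4.12% of those at least 2-fold higher. Shares for the E-box (CACGTG), the kappaB site and the CCAAT box, the last of which is contained in the ERSE, are in the plot of motif shares. A match describes these letters in the window and does not show that a factor binds there.

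**Figure D3:**
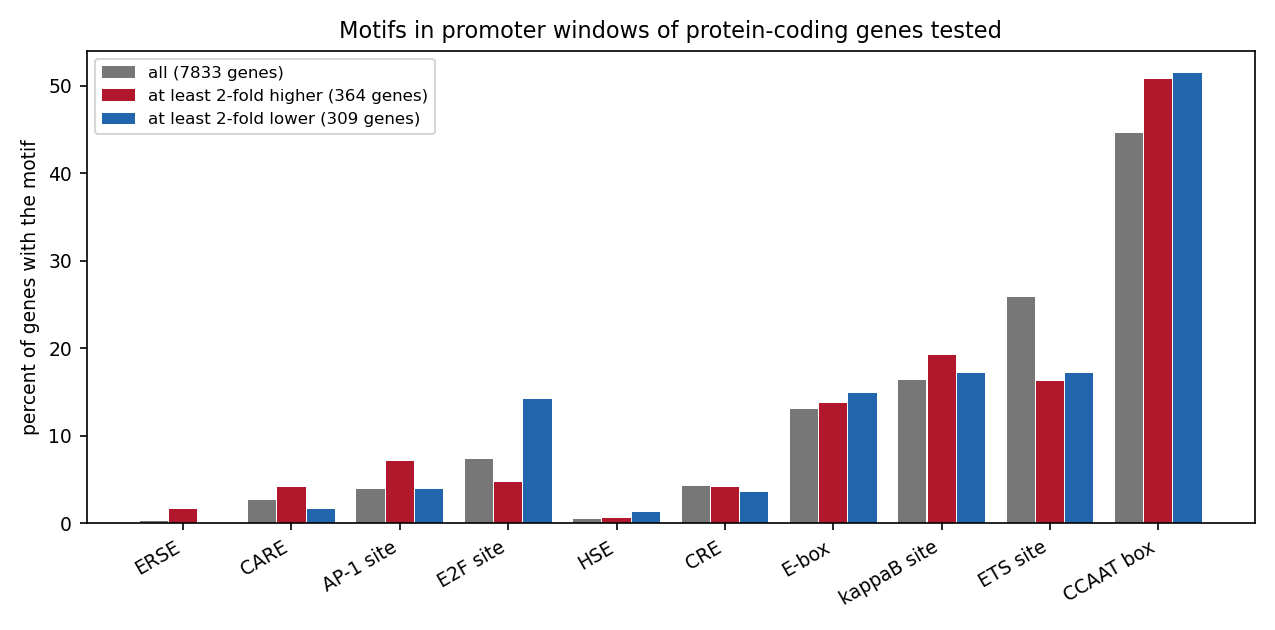
Bars give the percent of protein-coding genes with each motif in any promoter window, for all 7833 matched genes (grey), the 364 at least 2-fold higher (red) and the 309 at least 2-fold lower (blue). The E2F site is in 14.2% of the lower genes against 7.35% of all, and the ETS site is below its overall share of 25.9% in both groups.

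Transcription factor families differed from each other. Of 33 basic leucine zipper factors 20 were higher and 5 lower (median 0.52). DDIT3 (CHOP), a stress factor of this family, went from 25.6, 23.1 and 23.6 FPKM to 133, 126 and 136 FPKM (2.40 ± 0.0518), and NFIL3, also part of the circadian clock, from 3.18, 2.06 and 2.65 FPKM to 17.2, 15.9 and 16.9 FPKM (2.29 ± 0.114). ATF5, a further member of the stress response, moved the other way, from 201 ± 9.02 to 109 ± 1.71 FPKM (-0.88 ± 0.0411). All 10 tested E2F and DP factors, which pair to control S phase genes, had values below 0, and 9 of them fell (median -0.83). E2F2 went from 61.8, 60.6 and 65.1 FPKM to 20.1, 21.3 and 20.3 FPKM (-1.56 ± 0.0432), its partner TFDP1 from 161 ± 4.02 to 65.8 ± 2.39 FPKM (-1.28 ± 0.0398), and E2F8 from 17.3 to 6.36 FPKM (-1.32).

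The 15 ETS factors, SPIB among them, were divided, with 7 higher and 5 lower (3 lower without morusinol replicate 3, and 5 higher and 6 lower on the TPM scale). ETS1 rose from 23.7 to 40.7 FPKM (0.75). Among other factors of lymphocytes, of 6 interferon regulatory factors 3 were higher and 1 lower, led by IRF4, a factor of activated B cells and plasma cells, at 33.3, 32.0 and 35.4 FPKM in controls and 118, 117 and 121 FPKM after morusinol (1.79 ± 0.0451). ID3, which blocks E proteins, fell from 118, 120 and 126 FPKM to 26.7, 26.6 and 25.1 FPKM (-2.18 ± 0.0419), and LYL1, another basic helix-loop-helix factor, from 26.99 to 5.73 FPKM (-2.06). POU2F2 (OCT2), which binds octamer motifs of immunoglobulin genes, fell from 3.02 to 0.422 FPKM (-1.50). In the group of ZBTB, BCL6, BCL11 and Ikaros genes 20 of 38 were higher and 4 lower (median 0.28; 2 lower without control replicate 2 or without morusinol replicate 1), with ZBTB38 (1.78 to 6.20 FPKM, 1.38) and ZBTB10 (5.08 to 14.8 FPKM, 1.37) leading and Ikaros itself, IKZF1, lower (21.5 to 8.89 FPKM, -1.19). ZNF and ZFP zinc finger genes numbered 339 tested, of which 125 (36.9%) were higher and 36 (10.6%) lower, so few of them fell. Their median level was 4.01 FPKM. Among all protein-coding genes from 2 to 5 FPKM, 35.5% were higher and 21.6% lower, so their share higher was close to that of genes at like levels. Of 15 nuclear receptors 6 were higher and 2 lower (1 lower without control replicate 1, control replicate 2 or morusinol replicate 3), with the vitamin D receptor VDR at 23.4 and 52.2 FPKM (1.13) and the clock receptor NR1D2 at 4.40 and 12.4 FPKM (1.32) in control and morusinol. KLF6 (6.36 to 15.7 FPKM, 1.18) and FOXO4 (1.51 to 4.72 FPKM, 1.19) rose in families with members in both directions.

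Several families of transcription and chromatin leaned lower. None of the 15 RNA polymerase II subunits was higher and 11 were lower (median -0.53), led by POLR2L (38.9 to 13 FPKM, -1.52) and POLR2F (7.60 to 3.05 FPKM, -1.09). The Mediator complex, which links factors to polymerase, was nearly even, with 7 higher and 8 lower of 32 (median -0.05; 5 lower without control replicate 1, and 8 higher and 6 lower when scaled on protein-coding genes). Of 20 histone chaperones 15 were lower and 2 higher (1 higher without control replicate 1; median -0.55); ASF1B, which delivers new histones at replication, fell from 84.4 to 25.6 FPKM (-1.68), while NAP1L1 rose from 55.7 to 73.1 FPKM (0.39). UHRF1, which recruits DNA methyltransferase to replicated DNA, fell from 117 ± 3.25 to 21.3 ± 1.39 FPKM (-2.40 ± 0.0531). HDAC1 fell from 68.5 to 28.6 FPKM (-1.23) and HDAC5, of another deacetylase class, rose from 4.79 to 12.8 FPKM (1.25). Of 21 lysine demethylases 11 were higher and 3 lower (median 0.24), with KDM6B, which acts on histone H3 lysine 27, at 3.27 and 11.1 FPKM (1.51) and JMJD1C at 19.6 and 41.7 FPKM (1.06). Of 23 cohesin and condensin genes 16 were lower and 3 higher (median -0.39), and the lamins LMNB1 (158 to 63.9 FPKM, -1.30) and LMNB2 (52.5 to 26.7 FPKM, -0.95) fell.

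Several RNA processing families leaned the same way, but not all: of 20 CCR4-NOT and deadenylation genes 8 were higher and 8 lower, and of 23 CCCH and AU-rich binding proteins 8 were higher and 7 lower (4 lower without morusinol replicate 1; 5 higher and 8 lower on the TPM scale). None of 31 Sm, LSm and U snRNP genes, the protein cores of the spliceosome, was higher and 26 were lower (median -0.64), with SNRPG at 71.9 and 27.2 FPKM (-1.38) and SNRPD1 at 36.1 and 14.2 FPKM (-1.29) in control and morusinol. Of 26 SF3 and branch site factors 17 were lower, and 1, PRPF18 (0.43), was higher. Of 14 RNA exosome genes 9 were lower and none higher (3 higher when scaled on protein-coding genes). DHX9 (125 to 55.9 FPKM, -1.15) led the DEAD-box group, in which 25 of 46 were lower and 5 higher. Of 61 SR, hnRNP and CLK genes 33 (54.1%) were lower and 13 higher, a share lower close to the 54.4% of all protein-coding genes in the highest group by level; the splicing factor SRSF2 fell from 106 to 47.7 FPKM (-1.13), while the kinases CLK4 (2.37 to 6.57 FPKM, 1.17) and CLK1 (15.1 to 27.6 FPKM, 0.83), which phosphorylate SR proteins, rose. Of 57 genes of the nuclear pore and nuclear transport 40 were lower and 2 higher (median -0.39). RANBP1 (88.8 to 30.6 FPKM, -1.50) and the importin KPNA2 (59.9 to 24.7 FPKM, -1.25) were the steepest.

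**Figure D4:**
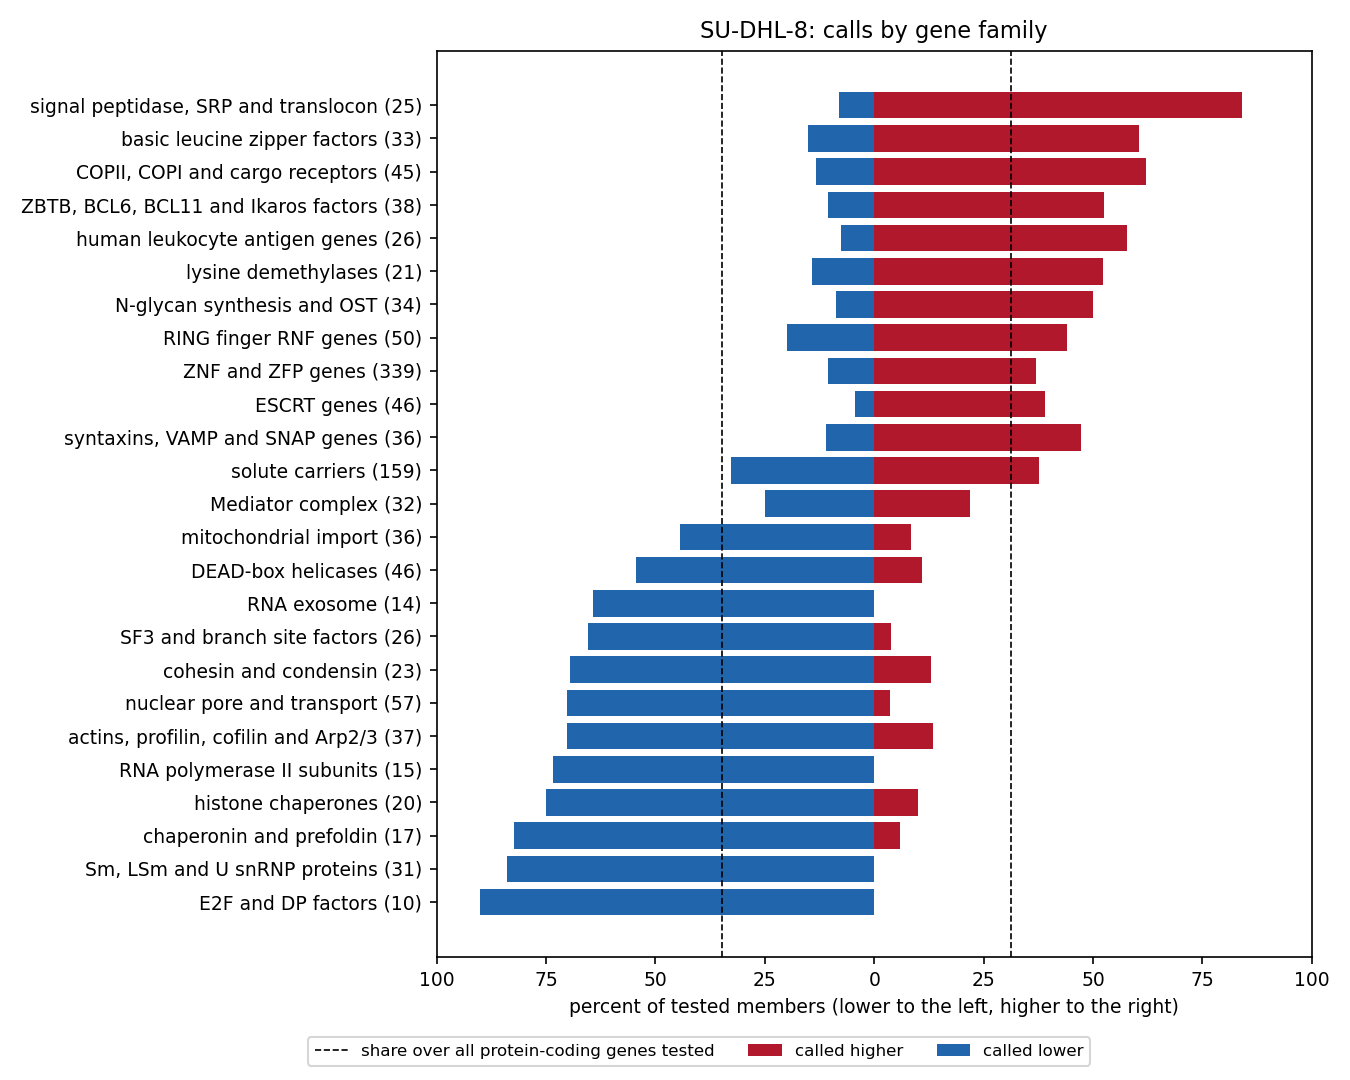
Bars to the right give the percent of tested members called higher and bars to the left the percent called lower, for 25 gene families ordered by their median log2 change, with the number of tested members in brackets; dashed lines mark 31.3% higher and 34.8% lower over all protein-coding genes tested. The translocon family reaches furthest to the right (21 of 25 higher) and the E2F and DP family furthest to the left (9 of 10 lower).

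Cytoskeletal families also leaned lower. ACTB (beta-actin, at chr7:5527147-5563784) was at 927, 918 and 937 FPKM in controls and at 203, 183 and 186 FPKM after morusinol (-2.28 ± 0.0465). Of 37 genes of actin and its partners 26 were lower and 5 higher (3 higher without control replicate 1 or without morusinol replicate 1; median -0.47), including cofilin CFL1 (77.2 to 29.9 FPKM, -1.34) and coronin CORO1A (57.1 to 23.5 FPKM, -1.25). DSTN (destrin), a relative of cofilin that also severs actin filaments, went the other way, from 28.99, 30.3 and 27.9 FPKM to 108, 104 and 108 FPKM (1.84 ± 0.041). Of 15 tubulin genes 7 were lower and 2 higher: TUBA1B fell from 216 to 74.3 FPKM (-1.53) and TUBB4B from 185 to 67.1 FPKM (-1.45), and TUBE1 rose from 7.96 to 24.1 FPKM (1.49). Actin and tubulin genes have many near-identical copies, and reads may be split among them.

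Surface and signalling genes were divided member by member. Of 10 TNF receptors 6 were higher and 2 lower (1 lower without any 1 of control replicates 1, 2 and 3 or without morusinol replicate 3). TNFRSF10B (DR5, a death receptor) went from 9.97, 9.75 and 10.5 FPKM to 39.3, 38.4 and 37.7 FPKM (1.83 ± 0.0427), and FAS from 0.351 to 3.16 FPKM (1.62), while TNFRSF10A (DR4) fell from 2.91 to 1.88 FPKM (-0.44). Of 8 RGS genes 4 were higher and 3 lower, with RGS16 and RGS1 (5.92 to 33.8 FPKM, 2.33) opposite to RGS19. Of 7 chemokines and receptors 5 were higher and none lower (1 lower without control replicate 2 or without morusinol replicate 2); CXCR4 went from 104, 110 and 97.0 FPKM to 241, 224 and 226 FPKM (1.15 ± 0.055) and CXCL10 from 0.144 to 3.53 FPKM (1.99). Of 14 interleukins and receptors 8 were higher and 2 lower (median 0.60; 1 lower without any single library), with IL23A at 3.58 and 11.5 FPKM (1.45). In the TGF-beta family TGFB1 fell from 23.5 to 6.42 FPKM (-1.73), and SMAD1 rose from 0.572 to 8.01 FPKM (2.52). MKNK2, a kinase of the cap-binding factor eIF4E, fell from 44.9 ± 1.62 to 7.93 ± 0.735 FPKM (-2.36 ± 0.0687), and MAP2K3 from 37.2 to 10.9 FPKM (-1.69); of 44 MAP kinases and their kinases 20 were lower and 11 higher. Among 30 lipid and nucleotide receptors 11 were higher and 8 lower (3 lower without control replicate 1); the cannabinoid receptor CNR1 rose from 0.244 to 5.16 FPKM (2.31) and P2RY8, a confinement receptor of germinal centre B cells, fell from 8.04 to 2.15 FPKM (-1.52). The IP3 receptor ITPR1 (2.89 to 10.9 FPKM, 1.62) and the calcium sensor STIM1 (5.27 to 13.2 FPKM, 1.18) rose, and the potassium channel KCNN4 fell (5.92 to 0.822 FPKM, -1.92).

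B cell antigens did not move as a block. Of 22 tested surface antigens 11 were higher and 8 lower (8 higher and 9 lower on the TPM scale). CD69, an early activation antigen, went from 25.8, 27.8 and 23.8 FPKM to 114, 113 and 113 FPKM (2.09 ± 0.0578), while CD79A, which carries signals from the B cell receptor, went from 179, 169 and 178 FPKM to 46.3, 41.7 and 41.0 FPKM (-2.004 ± 0.0543). Its partner CD79B rose, from 71.7 to 91.6 FPKM (0.35). Of 26 HLA and antigen presentation genes 15 were higher and 2 lower (median 0.25; 0 or 1 lower without any single library). HLA genes share sequence, so the division of reads among them is uncertain.

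The labelled cell type was checked with marker lists. All 9 B lymphocyte markers were tested, 3 were higher and 5 lower, and their summed level was 653 to 712 FPKM in controls and 602 to 661 FPKM after morusinol, so the ranges overlap. CD74, the largest member, was at 305 FPKM in controls and 376 FPKM after morusinol on average, and without it the other 8 summed to 370.2 to 386 FPKM and 248 to 257 FPKM, with no overlap. Of 8 plasma cell markers 7 were tested and all 7 were higher, with sums of 197 to 200.4 FPKM in controls and 552 to 563 FPKM after morusinol; most of that sum was MZB1 (95.4 to 233 FPKM), XBP1, IRF4 and CD38 (33.6 to 69.8 FPKM), while SDC1, the defining plasma cell antigen, was at a mean of 0.00325 FPKM in controls and 0.0123 FPKM after morusinol. Summed levels of the 12 T and NK markers were 3.02 to 4.35 FPKM in controls and 2.47 to 3.60 FPKM after morusinol, and CD3D, CD2, CD4 and PRF1 were at 0 in all 6 libraries. The 15 myeloid markers summed to 2.13 to 2.16 FPKM in controls and 1.61 to 2.01 FPKM after morusinol, with CD163, CEACAM8, CSF3R, FCN1, LCN2, S100A8 and S100A9 at 0 throughout, neutrophil markers among them, while the neutrophil collagenase MMP8 rose. The 11 stromal, endothelial and epithelial markers summed to 0.0719 to 0.134 FPKM in controls and 0.565 to 0.790 FPKM after morusinol, with KRT18 and KRT19 at 0. Most of that difference was COL1A1 (0.0384 and 0.550 FPKM on average), and without it the sums were 0.056 to 0.0586 FPKM and 0.105 to 0.148 FPKM. The 7 red cell and platelet markers summed to 0.0247 to 0.463 FPKM in controls and 0.0683 to 0.213 FPKM after morusinol. The plasma cell list moved with the ER families, and its part in them was not tested. In bulk RNA, fewer cells of a state and less RNA per cell cannot be told apart.

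Nutrient transport and metabolism held large single changes. Of 159 solute carriers 60 were higher and 52 lower, close to the protein-coding background (53 higher and 60 lower on the TPM scale). SLC7A11, the cystine carrier, went from 5.85, 5.71 and 5.76 FPKM to 17.9, 18.8 and 20.7 FPKM (1.57 ± 0.0596), and SLC43A1, an amino acid carrier, rose from 7.64 to 40.2 FPKM (2.26). SLC29A1, a nucleoside carrier, went from 50.7, 51.2 and 50.4 FPKM to 17.0, 14.0 and 15.1 FPKM (-1.66 ± 0.0674). Of 26 iron and haem genes 4 were higher and 8 lower, TFRC with the steepest fall. Mitochondrial import genes were lower in 16 and higher in 3 of 36 (5 higher without control replicate 2), with the channel TOMM40 at 61.6 and 29.6 FPKM (-1.04) in control and morusinol, while the mitochondrial protease LONP1 rose from 43.3 to 74.0 FPKM (0.76). The share of import genes lower (44.4%) was close to the 45.4% of all protein-coding genes at 10.8 to 21.0 FPKM, where their median level lay. The share higher was 8.33%, against 29.5%.

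Ubiquitin enzymes were divided as well. Of 32 E2 enzymes 18 were lower and 7 higher: UBE2C, of mitotic degradation, fell from 245 to 97.1 FPKM (-1.33), and UBE2J1, which works in ER-associated degradation, rose from 67.6 to 169 FPKM (1.31). Of 50 RNF genes 22 were higher and 10 lower, led by RNF122 (2.87 to 16.6 FPKM, 2.20) and RNF185 (7.19 to 33.0 FPKM, 2.05). SKP2, an F-box protein that targets cell cycle inhibitors, fell from 9.01 to 3.07 FPKM (-1.30), KLHL24 rose from 4.49 to 19.3 FPKM (1.89), and the ISG15 protease USP18 fell from 5.46 to 0.713 FPKM (-1.92). BTG1, an antiproliferative partner of the CCR4-NOT deadenylase, rose from 17.5 to 59.5 FPKM (1.71).

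The called genes that gained or lost most FPKM were another set. EEF2, the translation elongation factor, went from 1177, 1169 and 1213 FPKM to 2531, 2394 and 2400 FPKM (1.04 ± 0.0348), and RPS12 and EEF1A1 rose by 0.53 and 0.44. Histone genes stood on both sides: H1-2 (0.68), H1-4 (0.92), H2BC12 (0.52) and H4C6 (0.58) rose, and H4C4 (-1.25), H3C13 (-1.46), H4C13 (-1.22) and H1-5 (-0.53) fell. H4C4 was at 1756, 1721 and 1695 FPKM in controls and at 751, 723 and 696 FPKM after morusinol. Histone genes are near-identical copies, and their reads may be shared. GAPDH, often used as a reference gene, went from 971, 952 and 897 FPKM to 463, 469 and 458 FPKM (-1.02 ± 0.038), and PCNA, the replication clamp, from 628, 633 and 581 FPKM to 195, 203 and 188 FPKM (-1.64 ± 0.0479). Lambda light chain genes IGLV1-44 (-0.73), IGLC2 (-0.91) and IGLC3 (-0.87) fell, whereas the heavy chain constant gene IGHG3 rose (0.53). Of the called genes whose symbol occurs once, RN7SL5P, a copy of the 7SL RNA, gained most. It was at 6055, 2690 and 5335 FPKM in controls and 12364, 16908 and 6202 FPKM after morusinol. Its libraries varied widely (1.30 ± 0.45, adjusted p = 0.0481 in limma), and the call was lost in 12 of 15 alternative analyses. RN7SL1, which was not in that ranking, held 25.1% to 28.7% of all FPKM in controls and 28.9% to 31.5% after morusinol.

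Some abundant genes held their level. Of the 15 genes of at least 50 FPKM whose 95% interval of log2 change lay closest to 0, NPM1, a nucleolar protein, was at 223, 235 and 218 FPKM in controls and at 220, 233 and 220 FPKM after morusinol, with an interval of -0.11 to 0.10. RPL24 (-0.09 to 0.09), HLA-DRA (-0.12 to 0.08), EIF3A (-0.09 to 0.05), TPR, HSPA9, PHB2, CDV3, EIF2S2 and SLC1A5 were others. This group depends on the scaling of the table.

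Level and gene type went with direction. When protein-coding genes were divided into 5 equal groups by mean FPKM, the share called higher was 32.6% in the lowest group (0.627 to 3.01 FPKM) and 27.6% in the highest (21.1 to 2700 FPKM). The share called lower went from 14.9% to 54.4%, and the median change from 0.15 to -0.22. Low genes have wider relative error and were called less often. Genes with a summed exon length of up to 2949 bases were lower in 40.9% and higher in 24.8%, and those of at least 8223 bases were lower in 27.9% and higher in 36.2%. Median levels of these short and long genes were 11.3 and 6.21 FPKM, and the part of level in this difference was not tested. By chromosome, the share of protein-coding genes called higher was highest on chromosome 4 (40.2% of 323) and lowest on chromosome 22 (22.0% of 223). These are the extremes, against 31.3% of all protein-coding genes, and differences between chromosomes were not tested.

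Long non-coding genes were called higher far more often than lower. Of 502 lincRNA genes 195 were higher (38.8%) and 28 lower (5.58%), with a median of 0.33, and of 811 antisense genes 248 were higher (30.6%) and 45 lower (5.55%; 29 lower without control replicate 3), with a median of 0.24. The share higher depended on level. At 5 FPKM or more on average, 35 of 63 lincRNA genes (55.6%) and 34 of 63 antisense genes (54%) were higher, against 30.05% of 6247 protein-coding genes, whose median level in that range was higher (13.3 FPKM, against 10.8 and 6.86 FPKM). From 2 to 5 FPKM the shares were 41.7%, 36.9% and 35.5%, and below 2 FPKM, where most antisense genes lay, 33.6%, 24.4% and 30.3%. Of 15 lncRNA genes at bidirectional promoters 11 were higher and none lower. LINC01480 went from 0.286, 0.204 and 0.177 FPKM to 8.92, 8.44 and 8.13 FPKM (2.96 ± 0.0826), and LINC01686 rose from 1.75 to 17.9 FPKM (2.81). HSPA5-DT, which starts beside HSPA5, rose from 0.538 to 5.06 FPKM (1.94), and NBR2, beside BRCA1, from 2.51 to 12.9 FPKM (1.99). SNHG1 and GAS5, which host snoRNAs, rose from 53.4 to 132 FPKM (1.29) and from 137 to 225 FPKM (0.71). Small RNA genes were rarely called: of 169 snoRNA genes 17 were higher and 18 lower, and of 255 snRNA genes 18 and 18. MIR6813 lies within RGS19 and fell with it, so the reads of the small gene may be those of its host. Of 946 processed pseudogenes 167 were higher, 108 lower and 671 not called. Of the 5 named by size of change, ISCA1P4 rose (2.39) and SNRPGP10 (-1.31), HSPE1P2 (-2.06), HSP90AA2P (-1.66) and HMGB1P6 (-1.43) fell. The call of SNRPGP10 was lost without any 1 of the libraries other than morusinol replicate 2. Reads of the last 3 may be shared with HSPE1, HSP90AA1 and HMGB1.

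**Figure D5:**
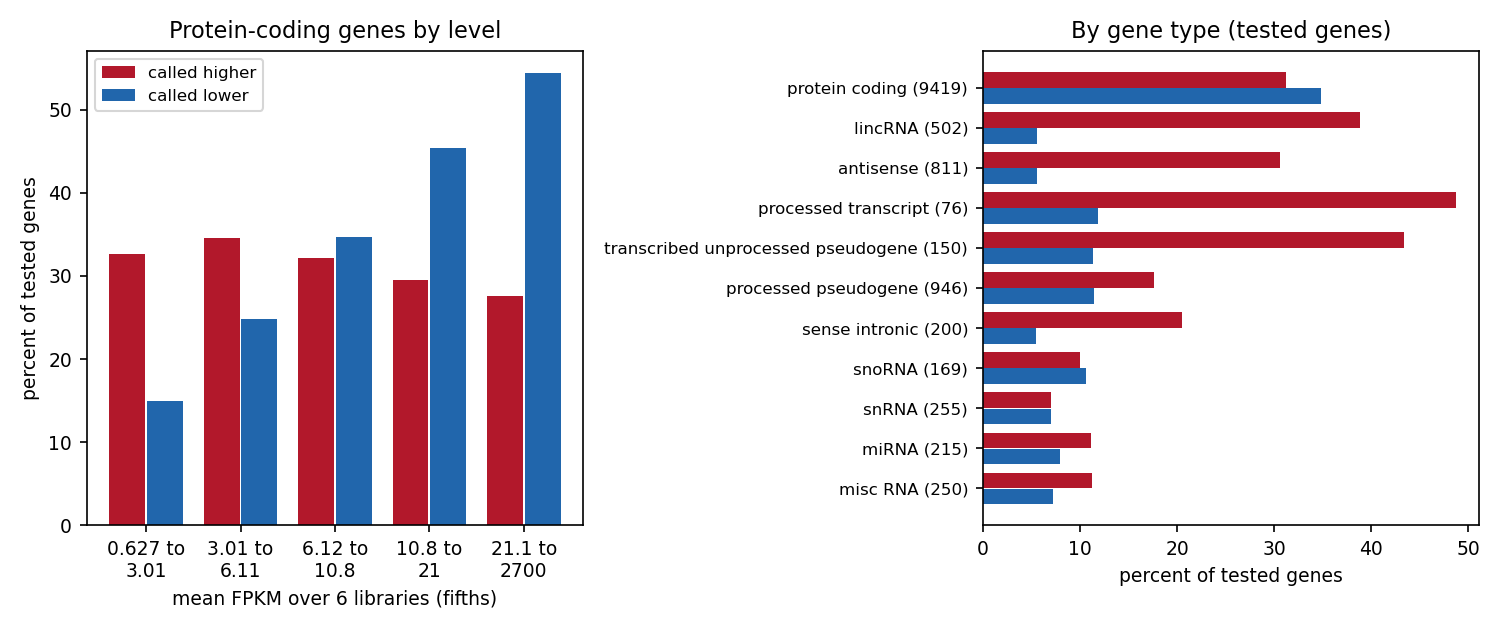
Left, percent of protein-coding genes called higher (red) or lower (blue) in 5 equal groups by mean FPKM over 6 libraries; right, the same percents by gene type, with the number tested in brackets. The share lower climbs from 14.9% to 54.4% with level, and lincRNA genes are higher in 38.8% and lower in 5.58%.

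Genes lying just downstream of a strong rise were higher more often. Of 41 expressed genes that follow a protein-coding gene risen by at least 2-fold on the same strand within 5 kb, 21 (51.2%) were higher and 7 lower (median 0.48). Behind all genes called higher the share was 32.6% of 267 pairs, nearer the 29.2% of all genes tested. Behind genes that were not called it was 21.2% of 321 pairs, and behind genes at least 2-fold lower it was 26.9% of 52. With 5 to 20 kb between the genes the share behind strong risers was 29.6% of 54 pairs, against 23.1% behind genes not called, and with 20 to 100 kb it was 35.0%, against 32.0%. The pairs with the largest downstream rise were INHBC and INHBE, NXPH4 and SHMT2, SURF4 and SURF1, MZB1 and SLC23A1, and EGR1 and the pseudogene RPL7P19. INHBC, 1494 bases before INHBE, rose by 2.05 on the log2 scale and INHBE by 3.37. These counts are descriptions, without a test, and neighbouring genes are not independent of each other.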

How the data were processed

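The authors deposited 1 table of FPKM per gene, with 1 column per library and no read counts. RNA came from a SMARTer mRNA-seq kit on total RNA, per the labels' protocols. No aligner, counting program or strand setting is named in the labels. The submitters' processing notes name only mouse builds (GRCm38 and mm10), whereas the identifiers are human, and 58297 of 61466 match GENCODE release 29 on GRCh38, which gave positions and gene types. Columns marked n were taken as control, the only other group in the labels. Depth was estimated from the value of 1 fragment, the commonest low product of FPKM and exon length; 54.3% to 56.6% of values under 20 fragments were whole with a tolerance of 0.02, so it is approximate.

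Genes with at least 1 FPKM in 3 of 6 libraries were kept and log2(FPKM + 1) was fitted with limma 3.58.1 (R 4.3.3), with an intensity trend, a robust prior, a two-sided test and Benjamini-Hochberg adjustment. The fit was tested on simulated data. Tables and plots used Python 3.11.15, pandas 2.3.3, numpy 2.4.6 and matplotlib 3.10.9.

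Named genes were the 25 largest rises and falls of at least 5 FPKM without overlap, up to 3 called members each way per family (at least 2 FPKM), the 15 largest changes in FPKM each way, up to 5 genes per non-coding type and the 15 steadiest genes. The largest rises, falls and changes in FPKM were taken among called genes whose symbol occurs once. Genes named as ERSE or HSE holders, neighbours, markers, the E2F2 promoter, CASP5 and OSBP were chosen after their values were seen. By the rule for promoters the first would have been VPREB3, PPP1R15A, MMP8 and RGS19. The 93 families, the motifs and all lists were chosen with earlier results of these data known, so their counts are descriptions. Whether replicate numbers pair the libraries is unknown, and the fit reported did not pair them. Alternatives were another pseudocount, other filters, 3 rescalings, other fits and leaving out each library. Some results are not reported here.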

Additional observations from a re-analysis of the deposited data

How the results depend on the processing

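The count of 7643 called genes stayed within 1.5 times under every alternative run, and no named gene reversed, but 87 of 192 counts for families and gene types moved by more under at least 1 alternative. With a pseudocount of 0.1 FPKM, 1324 genes were at least 2-fold higher (770 in the analysis reported). With a filter of 5 FPKM, 2415 were higher and 415 at least 2-fold higher, since fewer genes were tested. On the TPM scale 928 were at least 2-fold higher and 804 at least 2-fold lower (770 and 498 reported). That scale raised library totals of 371643 to 429757 FPKM to a larger common total, with 1 still added before the log. The part of each step in these counts was not tested. Leaving out 1 library gave 6686 to 7174 called genes, 3470 to 3752 higher, 3216 to 3452 lower, 769 to 806 at least 2-fold higher and 472 to 553 at least 2-fold lower. The replicate block gave 7150 called genes. Same-numbered libraries did not deviate together (correlations -0.0326, -0.0274 and 0.0149). With 3 libraries per group, these values cannot show whether the numbers pair the libraries. Among 197 named called genes, RN7SL5P, TMEM120A, SNRPGP10 and CD74 (TPM scale) lost their call under some alternatives. Depth limits genes near 1 FPKM most, and 6109 genes were not called, of which 3111 had a 95% interval within 0.5 log2 of 0.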
